A study of Mus musculus with 19 samples.

Results

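Hepatocytes that kept the red reporter in chronically injured mouse livers (group RED, 5 samples) were compared with hepatocytes of healthy livers (group CTL, 5 samples). These are 10 of the 15 samples of the series, and the members are every sample labelled RED or CTL, each entered with 1 library. All mice of both groups carried OPN-CreERT2 and Rosa26R-mT/mG, so the controls had the same alleles. With the mT/mG reporter a cell is red (membrane tdTomato) until Cre acts in it and green afterwards. OPN-CreERT2 is a tamoxifen-dependent Cre under osteopontin control, a gene of bile duct cells, so red marks any cell in which Cre had not acted and not hepatocytes alone. The labels call the CTL cells native and healthy with liver status control, and the RED cells native, injured and tdTomato with liver status chronic injury. The sources used here name neither the kind and length of the injury nor the age and sex of the mice, and they do not say how the cells were purified. The labels number the samples as biological replicates.

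Hepatocytes are the main metabolic cells of the liver. They make most plasma proteins, convert cholesterol to bile acids and pump these into bile, store and release glucose, and handle lipids, drugs and ammonia under the control of a small set of transcription factors that includes HNF4A. In chronic injury the surrounding tissue changes too: sinusoidal endothelial cells, stellate cells that deposit collagen, and macrophages lie directly against hepatocytes and are common companions of hepatocyte preparations.

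RNA was sequenced in 2 experiments with different library kits. Experiment 1 used a poly(A) kit (CTL 3, CTL 4, RED 1 and RED 5) and experiment 2 a ribosomal RNA depletion kit (CTL 1, CTL 2, CTL 5, RED 2, RED 3 and RED 4), and the experiment was a term of the fit. Estimated counts summed to between 26163553 and 44177627 per library. Levels are given as CPM, counts relative to the library total after scaling by edgeR's TMM factors. These factors ran from 0.689 in CTL 4 to 1.033 in CTL and from 0.993 to 1.238 in RED. CPM values compare samples, not genes, since they are not per length. CTL 4 stood apart with the lowest factor and with 33.2% of its counts in its 20 highest genes, against 24.2% to 27.9% in the other 9 libraries. A change was called at a Benjamini-Hochberg adjusted p of at most 0.05 in edgeR's quasi-likelihood test over 14793 genes, and log2 fold changes are RED over CTL with their standard error (SE).

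The libraries were those of hepatocytes in both groups. The 20 hepatocyte markers, among them albumin, transferrin and apolipoproteins, summed to between 148454 and 200970 CPM in CTL and between 101399 and 139740 CPM in RED, and all 20 were detected in every sample. Hnf4a was at 666, 527, 678, 673 and 559 CPM in CTL 1 to 5 and at 618, 461, 515, 670 and 357 CPM in RED 1 to 5, overlapping ranges (log2 -0.24, SE 0.19, adjusted p = 0.43). Markers of other liver cells were present in CTL and far higher in RED. The 15 sinusoidal endothelial markers summed to 73.2 to 190.0 CPM in CTL and to 522, 473, 1029, 1848 and 3096 CPM in RED 1 to 5. In bulk RNA, the number of cells of a type and the RNA per cell cannot be told apart, so every rise below that such cells could carry stands beside these values, and their part in it was not tested.

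**Figure D1:**
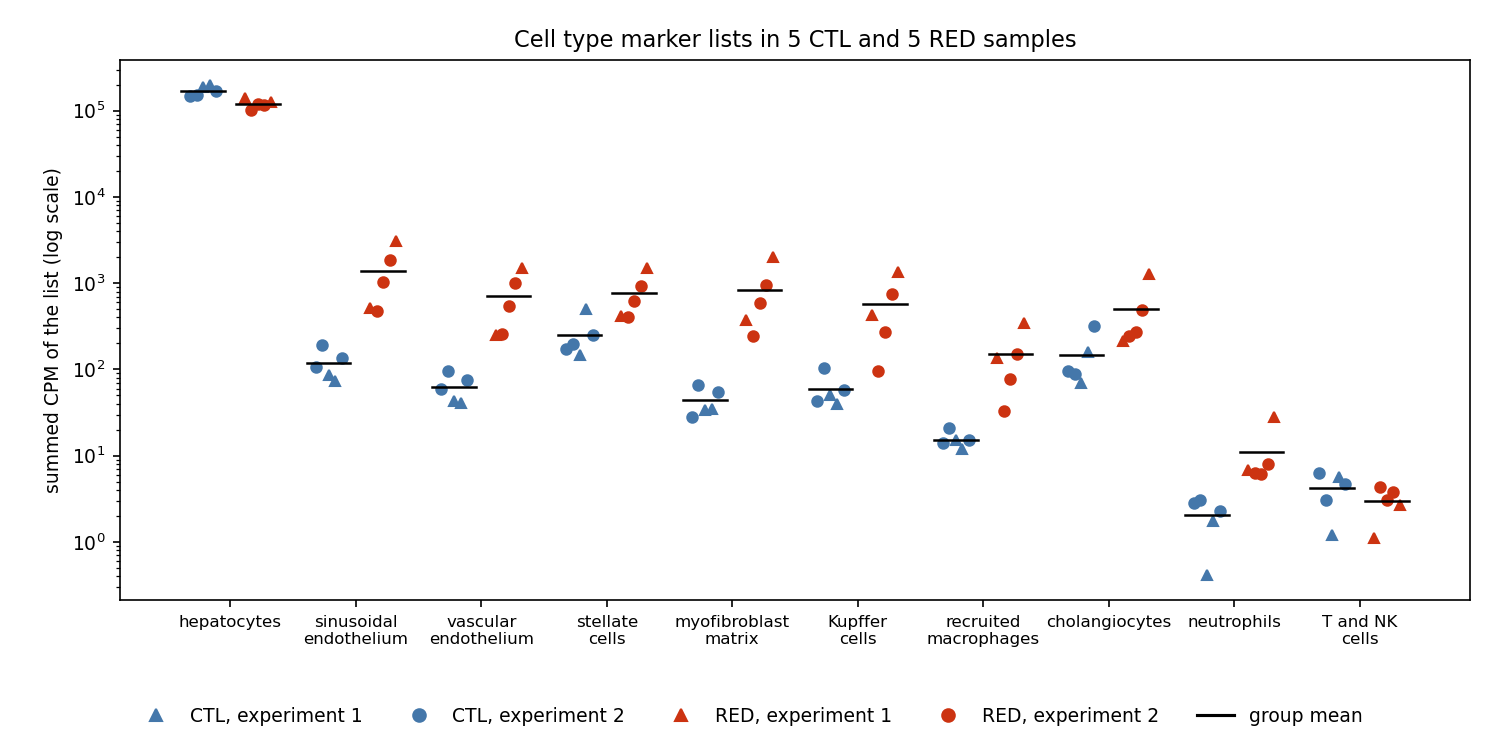
Summed CPM (log axis) of 10 marker lists in each sample, CTL in blue and RED in red, triangles for experiment 1 and circles for experiment 2, with a line at each group's mean. Samples 1 to 5 run from left to right within a group. The hepatocyte sum is a little lower in RED, while the endothelial, matrix and macrophage sums of all 5 RED samples lie above every CTL sample, except for the Kupffer sum of RED 2 (96.9 CPM, below the 103 CPM of CTL 2). The stellate sum of CTL 4 (502 CPM) lies above RED 1 and RED 2.

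With TMM scaling, changes were large and upward among genes of low level and small and mostly downward among genes of high level. In all, 2534 genes passed (17.1%), 1727 of them higher in RED (11.7%) with a median fold of 8.30 and 807 lower (5.46%) with a median fold of 1.46. Tested against a 2-fold change, 990 genes were higher (6.69%) and 27 lower (0.183%). Among the 1308 genes with a mean of at least 100 CPM over the 10 samples, 9 rose and 176 fell, whereas among the 3074 genes between 1 and 5 CPM, 824 rose and 40 fell. The direction at high levels turned with the scaling: with library totals 35 of the 1308 genes were higher and 17 lower, and their median log2 fold change was 0.05 in place of -0.31. Over all genes the log2 fold change had a median of -0.05 with TMM and 0.30 with library totals, and with totals 2833 genes were higher and 95 lower. Within experiment 1 alone (3 CTL and 5 RED libraries) 1381 genes were higher and 303 lower, and within experiment 2 alone (3 and 3) 591 and 68. CTL 5, RED 2, RED 3 and RED 4 have a library in each experiment and enter both of these fits. Calls in each experiment alone are therefore not independent of each other. Leaving out any 1 of CTL 1, 2, 4 or 5 or of RED 3, 4 or 5 brought the lower calls to between 362 and 445. A set of 30 genes was lower, and 436 were higher, in each of the 23 fits other than the one with the replicate number as a block.

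**Figure D2:**
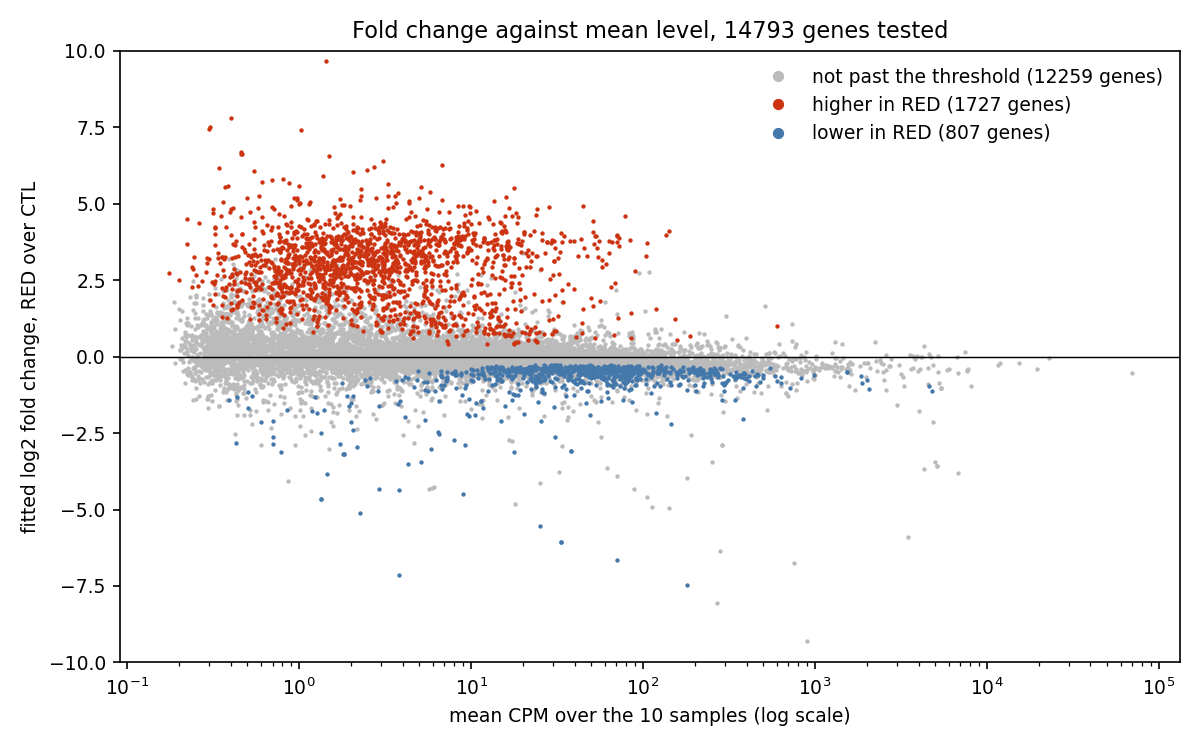
Fitted log2 fold change (RED over CTL) against the mean CPM of the 10 samples (log axis) for the 14793 genes tested, with the 1727 higher genes in red, the 807 lower genes in blue and the rest in grey. Red points gather at low levels around their median fold of 8.30, and blue points at high levels around 1.46.

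Some genes of bile acid handling were lower in RED. Of 26 tested genes for making and moving bile acids, 7 fell (26.9%, against 5.46% of all genes) and none rose. With TMM scaling the list had a median log2 of -0.44, against -0.05 over all genes and -0.31 over genes of at least 100 CPM. With library totals the list median was -0.11. Cyp8b1 (chr9:121914356-121916305, GRCm38), the sterol hydroxylase that directs synthesis towards cholic acid, was at 342, 269, 132, 185 and 272 CPM in CTL 1 to 5 and at 41.0, 36.9, 23, 77.5 and 76.0 CPM in RED 1 to 5. The groups did not overlap (fold 4.56, log2 -2.19, SE 0.39, adjusted p = 0.0069), and the fall was called in each experiment alone (log2 -2.0 and -2.69). Slc10a1 (chr12:80953183-80968705), the sodium-dependent carrier that takes bile acids up from blood, was at 399.7, 493, 727, 485 and 427 CPM in CTL and at 398.7, 196, 213, 196 and 261 CPM in RED, with RED 1 just under the lowest CTL sample (log2 -1.03, SE 0.17, adjusted p = 0.0067). Abcb11, the canalicular bile salt export pump, fell from 824 ± 68.9 to 450 ± 104 CPM (SD, n = 5 each; adjusted p = 0.012 in edgeR's test), and all RED samples were below all CTL samples. Slc51b, a subunit of the basolateral exporter, fell from 1.96 ± 0.43 to 0.57 ± 0.35 CPM (SD, n = 5 each; edgeR adjusted p = 0.0096). The oxysterol enzyme Cyp27a1 (fold 1.97), the conjugating enzyme Baat (fold 1.51) and the uptake carrier Slco1b2 (fold 1.63) were the other 3 that fell. Cyp7a1, the rate-limiting enzyme of the classic route, ranged from 30.6 to 752 CPM in CTL and from 19.1 to 644 CPM in RED, and its log2 fold change was 0.01 (SE 1.14). With library totals Cyp8b1, Slc10a1 and Slc51b kept their calls and the other 4 lost them.

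The promoter of Cyp8b1 held a match to an HNF4 motif, and is shown because this gene had the largest fall of the bile acid list. The letters searched were CAAAGTCCA on both strands of the 250 bases before each gene's start. RefSeq promoters (GRCm38.p6) were matched for 10955 tested genes, of which 59 held the motif (0.539%). Of the 25 named genes lower beyond 2-fold, 19 had a promoter and 2 held it (10.5%), Cyp8b1 and Csrp3. Capitals mark the match in the promoters of Cyp8b1 (chr9:121916306-121916555, minus strand) and of an internal start of Csrp3 (chr7:48843672-48843921, minus strand).
Cyp8b1: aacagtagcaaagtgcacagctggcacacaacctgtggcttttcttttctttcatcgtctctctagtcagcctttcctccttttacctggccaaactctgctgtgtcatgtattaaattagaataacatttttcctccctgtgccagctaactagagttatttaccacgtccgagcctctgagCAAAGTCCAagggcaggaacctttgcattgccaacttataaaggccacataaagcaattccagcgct
Csrp3: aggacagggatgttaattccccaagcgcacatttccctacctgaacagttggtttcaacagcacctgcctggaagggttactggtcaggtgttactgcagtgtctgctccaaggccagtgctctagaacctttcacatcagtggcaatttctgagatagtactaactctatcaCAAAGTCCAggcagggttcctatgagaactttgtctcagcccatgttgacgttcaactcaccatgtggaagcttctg
The other motifs searched over the same promoters were an HNF1 motif (in 0.429% of all), TTGCGCAA (C/EBP, 0.283%), TTNNGCAA (C/EBP, 9.74%), AGGTCA (nuclear receptors, 13.7%), TTCNNNGAA (STAT, 7.54%), TGACTCA (AP-1, 4.28%), GGAAGT (ETS, 26.1%), CCAAT (NF-Y, 40.5%) and TTTGAA (cell cycle homology region, 13.8%). In the genes lower beyond 2-fold, AGGTCA was present in 2 of 19 (10.5%), TTNNGCAA, which includes every TTGCGCAA, in 3 (15.8%), TTCNNNGAA in 1 (5.26%), GGAAGT in 3 (15.8%) and CCAAT in 7 (36.8%), and the other 4 in none. A match describes the letters of these windows only.

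Of 24 transcription factors that set hepatocyte identity, 2 fell (8.33%, against 5.46% of all genes) and none rose. The list had a median log2 of -0.50 with TMM and -0.13 with library totals. Neither of the 2 was called with library totals. The 24 summed to 2975 to 3372 CPM in CTL and to 1905 to 2836 CPM in RED. Mlxipl, the glucose-sensing factor ChREBP, was at 254, 317, 294, 271 and 177 CPM in CTL and at 137, 182, 167, 89.4 and 118 CPM in RED (fold 1.90, adjusted p = 0.022). RED 2 lay just above CTL 5, and the other RED samples were below every CTL sample. Foxa1, Cebpa, Onecut1, Ppara and Nr1i3 had lower means in RED by 1.51-fold to 2.19-fold, and none passed. Among the 20 hepatocyte markers 5 fell (25%, against 5.46% of all genes), with the antiprotease Serpina1c (fold 2.17) and the clotting factor F9 (fold 1.59) in the lead. Albumin was not called (log2 -0.55, SE 0.35, adjusted p = 0.32). None of the 5 was called with library totals, and the count was 0 to 4 with any 1 sample left out.

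Some genes of clotting, conjugation and oxidation were lower by small amounts with TMM scaling, and none of them with library totals. Of 33 clotting and complement genes 10 fell (30.3%, against 5.46% of all genes) and none rose (median log2 -0.50). In the downward direction 12 did not overlap (8.06% of all genes). Among those that fell were F11 (102 ± 28.8 to 55.3 ± 13.3 CPM, SD, n = 5), Masp2 of the lectin pathway (fold 1.62) and the thrombin inhibitor Serpinc1 (fold 1.54). This count was 2 to 6 without any 1 of the CTL samples or of RED 3, 4 or 5. Of 26 conjugating enzymes 5 fell (19.2%), Ugt2a3, Ugt2b34, Ugt3a2, Sult1b1 and Nat2, with folds of 1.46 to 1.65. Of 26 cytochromes P450 4 fell (15.4%), Cyp4v3, Cyp2d22, Cyp2r1 and the arachidonic acid epoxygenase Cyp2j5 (763 ± 164 to 438 ± 125 CPM, SD, n = 5, edgeR adjusted p = 0.0096). Cyp3a11, the main drug-oxidising form, had a log2 fold change of 0.48 (SE 0.38, adjusted p = 0.44). With any 1 sample left out, 2 to 5 conjugating enzymes and 1 to 4 P450 enzymes were lower. No conjugating enzyme or P450 was called lower with library totals, and 3 conjugating enzymes were then higher. Acute phase genes were scattered: 1 of 24 passed (Crp, lower; not called without any 1 of the CTL samples or of RED 3, 4 or 5), and Saa1, an inflammation-induced serum amyloid, ran from 36.5 to 4990 CPM in CTL and from 39.8 to 4158 CPM in RED.

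Lipid genes changed at both ends of the range. Of 17 genes of fatty acid synthesis 3 fell (17.6%, against 5.46% of all genes). They were Thrsp, a lipogenic protein responsive to thyroid hormone and carbohydrate, Dgat2, which makes triglyceride, and Mlxipl. Thrsp was at 233, 127, 215, 201 and 155 CPM in CTL and at 46.4, 27.3, 87.0, 50.6 and 47.4 CPM in RED, without overlap (fold 3.59, log2 -1.84, SE 0.30, adjusted p = 0.0067), and it alone of the 3 kept its call with library totals and without CTL 2. Of 22 cholesterol genes 2 fell (9.09%, against 5.46% of all genes), the carrier Stard4 (fold 1.79) among them. This count was 0 with library totals, and 1 without any 1 of CTL 1, 2, 3 or 4 or of RED 2, 3 or 5. Of 20 genes of fatty acid oxidation and ketogenesis none passed (median log2 -0.10). Of 15 genes of lipid uptake and droplets 3 rose (20%, against 11.7% of all genes) and 1 fell (6.67%, against 5.46%), with a median log2 of 0.01. Lpl, the lipase that frees fatty acids from lipoproteins, was at 16.2, 6.45, 2.52, 8.78 and 13.6 CPM in CTL and at 78.9, 104, 152, 124 and 149 CPM in RED (fold 13.6, log2 3.76, SE 0.43, adjusted p = 0.005). The fatty acid transporter Cd36 rose from 12.9 ± 15.7 to 102 ± 34.9 CPM (SD, n = 5; edgeR adjusted p = 0.04), a call lost without any 1 of CTL 1, 3, 4 or 5 or of the RED samples. The liver fatty acid binding protein Fabp1 fell (fold 1.81; not called with library totals or without any 1 of CTL 1, 2, 3 or 5 or of RED 2, 3, 4 or 5) and the adipocyte and endothelial form Fabp4 rose (log2 4.00). Endothelial cells and macrophages also express Lpl, Cd36 and Fabp4, and their markers rose in the same samples; their part in these rises was not tested.

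**Figure D3:**
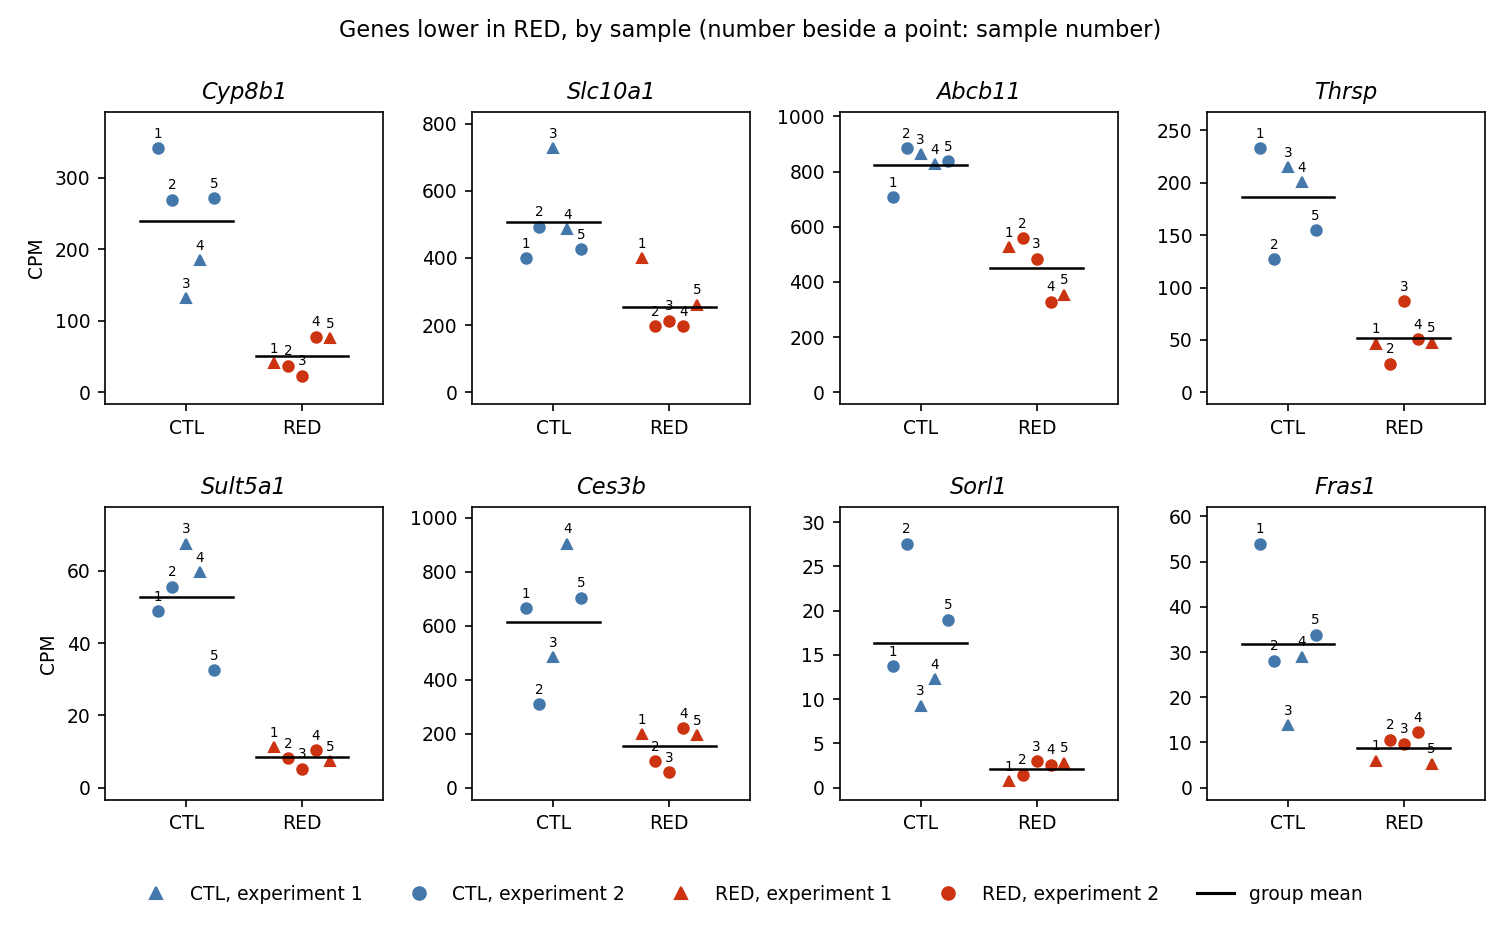
CPM of 8 genes lower in RED in each sample (numbers beside points are sample numbers; triangles, experiment 1; circles, experiment 2; line, group mean of 5). In each panel the RED samples lie below the CTL samples of the same experiment, by the widest margins in Sult5a1 and Sorl1.

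Some liver forms of glucose enzymes were lower and some forms typical of other tissues higher. Of 14 liver forms 3 fell (21.4%, against 5.46% of all genes), all 3 with no call by library totals. They were the glucose transporter Slc2a2 (434 ± 93.1 to 272 ± 41.3 CPM), glycogen phosphorylase Pygl (562 ± 45.6 to 371 ± 46.3 CPM, SD, n = 5 each) and the fructose kinase Khk (fold 1.44). The count was 1 without RED 4, 2 without any 1 of CTL 1, 2, 4 or 5 or of RED 3 or 5, and 0 in experiment 2 alone. Of 16 forms typical of other tissues 6 rose (37.5%, against 11.7% of all genes), with a list median log2 of 0.145. This count was 3 with limma-voom, 3 in experiment 2 alone and 0 with the replicate block. Among the 6 were the pyruvate kinase Pkm (log2 3.82, SE 0.67), the hexokinases Hk1 (3.76) and Hk2 (2.89) and the phosphofructokinase Pfkp (3.18). Pkm was at 1.26, 2.48, 1.40, 1.29 and 1.72 CPM in CTL and at 10.6, 5.52, 15, 28.1 and 70.5 CPM in RED. Its highest sample was RED 5 and its lowest RED sample was RED 2, as for the Kupffer, stellate and matrix sums. Slc2a5, the fructose transporter, fell from 11.1 ± 7.03 to 1.91 ± 1.18 CPM (SD, n = 5; edgeR adjusted p = 0.014).

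In the zonation, amino acid and mitochondrial lists, 0% to 7.41% of the genes fell, against 5.46% of all genes. Among 27 genes of the pericentral zone Cyp27a1 and the cation transporter Slc22a3 fell (7.41%). The Wnt inhibitor Nkd1 rose (3.70%, against 11.7% of all genes). The list had no call in either experiment alone, and 2 higher and 0 lower calls with library totals. It had no higher call with limma-voom or without any 1 of CTL 1, 3, 4 or 5 or of RED 3, 4 or 5. Glul, glutamine synthetase of the last pericentral layer, had a log2 fold change of -0.67 (SE 0.29, adjusted p = 0.15). Among 26 periportal genes only Pigr, the immunoglobulin A transporter, fell (3.85%, against 5.46% of all genes), with a fold of 1.71 and without overlap within an experiment. The list had no lower call with library totals or with any 1 sample other than RED 1 left out. Of 36 urea cycle and amino acid genes Kmo and Haao of tryptophan breakdown fell (5.56%, against 5.46% of all genes). This count was 0 with library totals and without any 1 of CTL 1, CTL 4, RED 4 or RED 5. It was 1 without CTL 2, CTL 5 or RED 3. Cps1 did not pass (log2 -0.44, SE 0.23, edgeR adjusted p = 0.23). None of the 22 respiratory chain genes passed, with 1 sample setting that count: without RED 1, 14 of them fell. Their summed level was 4458 to 5354 CPM in CTL, 5674 CPM in RED 1 and 3259 to 3849 CPM in RED 2 to 5. Without RED 1 the urea cycle and amino acid list also had 6 falls and the periportal list 4. This fit without RED 1 used TMM scaling. Of 23 hormones and binding proteins 3 fell, among them Igfbp4 (fold 1.51) and Fetub (fold 1.64), and the count was 0 with library totals and without any 1 of CTL 1, 2 or 4 or of RED 3, 4 or 5, and 1 without CTL 3. In iron handling 2 of 17 genes rose (11.8%, against 11.7% of all genes). They were Bmp6, a hepcidin inducer made by sinusoidal endothelium, and the haem oxygenase Hmox1. Hepcidin itself (Hamp) did not pass (log2 1.06, SE 0.51, adjusted p = 0.19).

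Genes outside these pathways fell further. Beyond 2-fold, 27 genes were lower, 25 of them with a symbol, and this set was chosen after its values were seen. Sult5a1, a sulfotransferase, was at 48.7, 55.6, 67.5, 59.6 and 32.5 CPM in CTL and at 11.1, 8.18, 5.26, 10.4 and 7.35 CPM in RED (fold 6.16, log2 -2.62, SE 0.23, adjusted p = 0.0034). Sorl1, a sorting receptor, was at 13.7, 27.6, 9.27, 12.3 and 19 CPM in CTL and at 0.742, 1.46, 3.01, 2.61 and 2.80 CPM in RED (fold 7.46, adjusted p = 0.0063). Acpp, an acid phosphatase, fell from 10.9 ± 3.50 to 1.99 ± 0.74 CPM and Nxpe2 from 13.9 ± 7.16 to 2.07 ± 0.92 CPM (SD, n = 5 each; edgeR adjusted p = 0.0062 and 0.0054). These 4 genes fell in each experiment alone (fits that share samples) and with every scaling. So did Fras1, a basement membrane matrix protein (31.7 ± 14.5 to 8.73 ± 3.02 CPM; SD, n = 5 each). The carboxylesterases Ces3b (614 ± 227 to 153 ± 71.9 CPM) and Ces4a (5.54 ± 5.33 to 0.26 ± 0.13 CPM), Rarres1 (45.6 ± 9.33 to 14.9 ± 5.71 CPM) and the muscle LIM protein gene Csrp3 (14.8 ± 6.90 to 4.06 ± 0.79 CPM; SD, n = 5 each) were lower as well. The calls of Ces3b, Ces4a and Csrp3 were lost in experiment 2 alone, and that of Rarres1 in experiment 1 alone. Ces4a was not called with limma-voom either. It was at 6.22, 13.6 and 6.40 CPM in CTL 1, 4 and 5 and at 0.39 and 1.06 CPM in CTL 2 and 3. Its level in CTL 2 lay below that in RED 4 (0.48 CPM). The other symbols given here are Dct of melanin synthesis, Htra4, Fitm1 of fat storage, Slc13a2, Jph1, Whrn, Tiam2, Cyp46a1, Thrsp, Cyp8b1, Mup19, Mup15, Mup-ps16 and Mup-ps13 of the major urinary protein (Mup) family, and the pseudogene Rps2-ps6. Of these, Dct, Slc13a2, Jph1, Cyp46a1, Thrsp, Mup19, Mup15 and Mup-ps16 were not called in experiment 2 alone. Cyp46a1 and Mup-ps16 were not called with limma-voom either, nor Mup-ps16 without CTL 2, nor Fitm1 without RED 4. Cyp46a1 was at 1.23 CPM in CTL 5, below RED 1 (1.59 CPM) and RED 2 (1.35 CPM). Mup-ps16 was at 16.7 and 19.9 CPM in CTL 2 and 3 and at 0.354 to 0.546 CPM in CTL 1, 4 and 5. Mup-ps16 and Rps2-ps6 were not tested in experiment 1 alone. The 2 genes without a symbol repeat the counts of Mup15 and Mup-ps13, so reads could not be assigned between those copies. Ptgds, a prostaglandin D synthase (fold 8.14, adjusted p = 0.043), was not called with library totals (adjusted p = 0.058), in either experiment alone, or without any 1 of the CTL samples or of RED 3, 4 or 5. Mup16 fell too (log2 -3.10, adjusted p = 0.032), a call lost in each experiment alone and without any 1 of CTL 1, 3, 4 or 5 or of RED 1, 2 or 5.

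Genes with a sex bias varied widely within groups. Mouse liver expresses many P450 enzymes, sulfotransferases and Mup proteins at levels set by the pulse pattern of growth hormone, which differs between the sexes. The 4 Y-linked genes summed to 133, 179 and 133 CPM in CTL 1, 4 and 5 and to 123 and 141 CPM in RED 4 and 5, and to between 1.16 and 13.8 CPM in CTL 2 and 3 and RED 1, 2 and 3. Both groups thus held samples of high and of low Y-linked level. Hsd3b5, a male-biased steroid enzyme, was at 253, 0.023, 2.25, 295 and 145 CPM in CTL 1 to 5 and at 0.236, 0.301, 0.146, 1.87 and 6.05 CPM in RED 1 to 5. In RED 4 and 5, whose Y-linked level matched that of CTL 1, 4 and 5, it was far under those samples. With the Y-linked level as a covariate its log2 fold change was -5.40 (adjusted p = 0.0097), against -6.65 without (SE 1.95, adjusted p = 0.043). Elovl3, a male-biased fatty acid elongase, was at 580, 174 and 85.7 CPM in CTL 1, 4 and 5 and at 29 and 10 CPM in RED 4 and 5.

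Among the samples of low Y-linked level, the female-biased list summed to 11122 and 19748 CPM in CTL 2 and 3 and to 587, 303 and 931 CPM in RED 1, 2 and 3. Cyp3a41a, a female-specific P450, was at 2766 and 6181 CPM in CTL 2 and 3, at 5.77, 1.70 and 3.78 CPM in RED 1, 2 and 3, and at 0.189 to 2.38 CPM in the samples of high Y-linked level. Its call was just missed (log2 -9.30, SE 2.88, adjusted p = 0.053). Cyp2b9 was at 812 and 938 CPM in CTL 2 and 3 and at 234, 119 and 369 CPM in RED 1, 2 and 3. Mup20, a male-biased pheromone carrier also known as darcin, showed the opposite order in these samples, at 12.4 and 22.7 CPM in CTL 2 and 3 and at 504, 309 and 85.1 CPM in RED 1, 2 and 3. Mup19 was high in CTL samples of both low and high Y-linked level: it was at 424, 352, 732, 250 and 28.5 CPM in CTL and at 0.81, 0.43, 0.021, 5.18 and 3.11 CPM in RED (log2 -7.48, SE 1.32, adjusted p = 0.0069). Mup genes are near-identical copies, and their counts are uncertain for that reason. Of 19 male-biased genes 3 fell (15.8%, against 5.46% of all genes), Mup19, Hsd3b5 and Susd4, and the list had a median log2 of -1.77. Of 16 female-biased genes none was called lower, though their median log2 was -3.35. The male-biased count was 1 without any 1 of CTL 1, 4 or 5 or of RED 1, 2, 3 or 5, 2 without RED 4, 1 with limma-voom and 9 with DESeq2. With the Y-linked level as a covariate the male-biased and female-biased counts were 7 and 3. Ntrk2, a neurotrophin receptor on the female-biased list, rose from 1.16, 6.59, 3.61, 0.258 and 1.03 CPM to 51.9, 61.8, 57.0, 28.5 and 19.7 CPM in RED (log2 4.10, SE 0.73, adjusted p = 0.0069). Of 13 growth hormone signalling genes only the receptor Ghr fell (7.69%, against 5.46% of all genes). Its fold was 1.40, and its call was lost with library totals and with any 1 sample other than RED 1 left out.

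**Figure D4:**
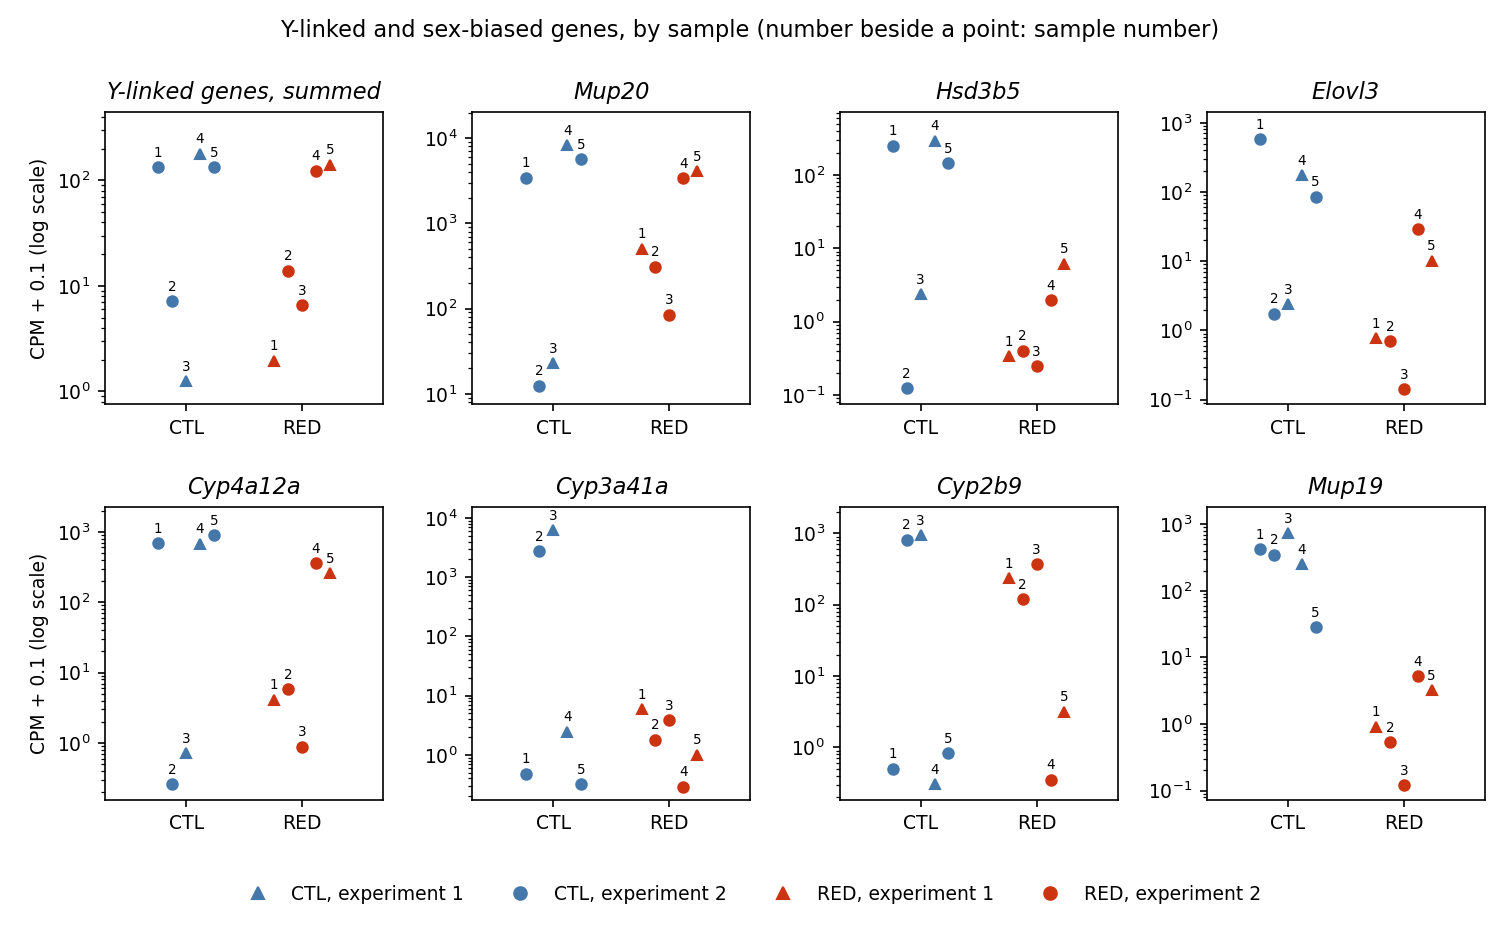
CPM + 0.1 (log axis) of the summed Y-linked genes and 7 sex-biased genes in each sample (numbers beside points are sample numbers; triangles, experiment 1; circles, experiment 2). Hsd3b5 and Elovl3 are highest in CTL 1, 4 and 5, Cyp3a41a is high in CTL 2 and 3 alone, and Mup19 is higher in all CTL than in all RED samples.

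The largest block of rises was in genes of other liver cells. Of all genes tested 11.7% were called higher, the share to set beside each count here. All 15 sinusoidal endothelial markers rose (median log2 3.79), for example the scavenger receptor Stab2 (21.8, 37.0, 18.9, 14.1 and 21.6 CPM in CTL; 61.0, 64.5, 128, 215 and 313 CPM in RED; log2 2.80, SE 0.51) and the hyaluronan receptor Lyve1 (log2 5.14, SE 0.76). Of 22 markers of endothelium in general 21 rose, and Selp had a log2 fold change of -0.27 (adjusted p = 0.44). Of 15 stellate cell markers 14 rose, with Reln at 20.4 ± 10.4 CPM in CTL and 188 ± 99.9 CPM in RED (SD, n = 5; edgeR adjusted p = 0.0067) and the vitamin A enzyme Lrat at a log2 of 3.21 (SE 0.78). Of 17 tested matrix genes of activated stellate cells 15 rose. Col1a1 was at 0.712, 0.941, 1.77, 0.93 and 2.37 CPM in CTL and at 15.3, 17.2, 27, 46.5 and 59.3 CPM in RED (log2 4.60, SE 0.53, adjusted p = 0.005), while Timp1 (log2 2.84, adjusted p = 0.11) and Tagln (log2 1.97, adjusted p = 0.087) did not pass. Portal fibroblast genes gave 4 rises among 8 tested (Dpt, Pi16, Eln and Fbln2). The 12 genes with the largest rises among those with a CTL mean of 5 CPM or more were the matrix proteins Sparc, Col14a1 and Bgn, the water channel Aqp1, the pericyte regulator Rgs5, and Ptprb, Adgrf5, Kdr, Clec4g, Ehd3, Plxnc1 and Plxnd1, which endothelial cells express. Sparc, the first of them, was at 4.56, 10.4, 4.06, 3.88 and 8.19 CPM in CTL and at 66.1, 44.0, 116, 187 and 347 CPM in RED (fold 24.2). Among genes with a lower CTL mean the largest rises were those of Ccl3, Ccl4, Flrt2, Pakap, Lama2, Pde2a, Emp1 and Tnf, with log2 values of 5.37 to 6.40.

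Macrophage and neutrophil genes rose, and T cell and red cell genes did not pass. The counts here stand against the 11.7% of all genes that were called higher. In experiment 2 alone the higher count was 2 for recruited macrophages and 0 for neutrophils and for dendritic cells and class II. Of 13 Kupffer cell markers 12 rose (1 in experiment 2 alone), with Clec4f at 9.12, 23.4, 9.96, 8.63 and 12.2 CPM in CTL and at 69.2, 19, 53.1, 151 and 255 CPM in RED, where RED 2 lay below CTL 2. Marco, a scavenger receptor, rose most (log2 4.84, SE 0.73). Of 13 markers of recruited macrophages 10 rose, among them lysozyme Lyz2 (4.75 ± 2.78 to 97.5 ± 87.4 CPM, SD, n = 5) and Gpnmb (log2 4.40), while Trem2 had a log2 of 0.23 (SE 0.28). Of 10 dendritic cell and class II genes 7 rose, a count of 3 to 7 with 1 sample left out that was under 5 without any 1 of CTL 1, CTL 3 or RED 4, and 1 with limma-voom. Of 5 tested neutrophil genes 3 rose (S100a9, Csf3r and Ngp), of 3 B and plasma cell genes Cd22 did (adjusted p = 0.05, lost with limma-voom and without any 1 of CTL 1, 3, 4 or 5 or of RED 1, 3, 4 or 5), and none of 3 T and NK cell or 6 erythroid genes did. Bile duct genes gave 3 rises among 12 tested (25%), Bicc1, Elf3 and Aqp1, the last of which endothelium expresses too. The call of Elf3 was lost in each experiment alone, with limma-voom and without CTL 5. Spp1, the gene whose promoter drives the Cre, was at 14.6, 4.02, 6.00, 107 and 261 CPM in CTL and at 30.6, 90.3, 37.8, 175 and 342 CPM in RED (log2 0.75, SE 1.19, adjusted p = 0.72). The duct keratin Krt19 was too low to test.

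Mitotic genes were higher in RED as a group, most of all in 3 of the 5 samples. All 23 tested genes of the G2 and M phases rose (11.7% of all genes did), with a median log2 of 3.05. Cdk1, the kinase that starts mitosis, was at 0.879, 0.735, 1.23, 0.672 and 0.98 CPM in CTL and at 3.31, 2.04, 8.54, 11.2 and 11.5 CPM in RED (log2 3.02, SE 0.51, adjusted p = 0.0067). Mki67, the proliferation marker, was at 2.11, 4.23, 4.13, 0.052 and 1.85 CPM in CTL and at 5.97, 3.74, 45, 46 and 26.5 CPM in RED, where RED 2 lay within the CTL range (log2 3.29, SE 0.89, adjusted p = 0.032). Top2a, the topoisomerase of chromosome separation, was at 2.21, 2.66, 2.22, 0.568 and 2.61 CPM in CTL and at 3.98, 3.33, 19.5, 14.2 and 14.8 CPM in RED. RED 3, 4 and 5 were thus the highest of these samples and RED 1 and 2 lay nearer to CTL, and 11 of the 23 genes did not overlap within either experiment (11.9% of all genes were higher in that way). The summed list was at 49.4, 31, 228, 242 and 214 CPM in RED 1 to 5 and at 9.35 to 34.8 CPM in CTL. The marker sums of other cells, which could also hold dividing cells, were higher in these samples as well (for endothelium 1029 CPM in RED 3 and 3096 CPM in RED 5), and their part in the mitotic rise was not tested. The count of calls was 7 without RED 5, 10 or 11 without any 1 of CTL 1, CTL 5, RED 3 or RED 4, 13 without CTL 2 or CTL 4, 3 and 2 in experiments 1 and 2 alone, and 1 with limma-voom. Of 28 genes of G1 and DNA replication 1 rose and 1 fell (3.57% each, against 11.7% and 5.46% of all genes). Cyclin D2 (Ccnd2) rose (2.37 ± 1.06 to 30.3 ± 20.1 CPM, SD, n = 5, edgeR adjusted p = 0.0067) and the replication-linked repressor E2f8 fell (fold 2.39). With library totals 8 rose and none fell. Cyclin D1 (Ccnd1) ran from 11 to 217 CPM in CTL and from 62.3 to 198 CPM in RED and did not pass (adjusted p = 0.22).

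Promoters of mitotic genes held known cell cycle elements, shown for Cdk1 and Top2a because their rises passed and both elements occur in each. CCAAT, the NF-Y box, was present on either strand of the 250 bases upstream in 16 of the 18 mitotic genes with a promoter (88.9%, against 40.5% of all 10955), and TTTGAA, the cell cycle homology region, in 8 (44.4%, against 13.8%). Capitals mark CCAAT and TTTGAA or their reverse complements in the promoters of Cdk1 (chr10:69352913-69353162, minus strand) and Top2a (chr11:99024190-99024439, minus strand).
Cdk1: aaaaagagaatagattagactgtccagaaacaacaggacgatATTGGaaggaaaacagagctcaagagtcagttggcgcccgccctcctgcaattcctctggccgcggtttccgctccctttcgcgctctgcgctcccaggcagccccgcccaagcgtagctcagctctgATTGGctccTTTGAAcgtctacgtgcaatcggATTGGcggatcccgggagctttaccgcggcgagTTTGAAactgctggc
Top2a: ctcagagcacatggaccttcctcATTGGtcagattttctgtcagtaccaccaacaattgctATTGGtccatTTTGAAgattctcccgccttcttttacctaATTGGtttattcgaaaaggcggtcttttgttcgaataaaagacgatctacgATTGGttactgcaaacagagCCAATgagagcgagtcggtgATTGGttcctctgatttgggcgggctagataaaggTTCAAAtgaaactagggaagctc
The Cdk1 stretch holds 3 CCAAT and 2 TTTGAA matches, and the Top2a stretch 6 and 2.

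A minority of stress and arrest genes rose, against 11.7% of all genes. Of 21 p53 target and arrest genes 6 rose (28.6%), among them Phlda3 (0.14 ± 0.04 to 2.16 ± 1.32 CPM, SD, n = 5; edgeR adjusted p = 0.0063), the death receptor Eda2r (log2 2.99, SE 0.61) and Zmat3, an RNA-binding p53 target (10.4, 8.36, 8.11, 9.56 and 10.8 CPM in CTL; 14, 13.7, 17.7, 19.8 and 13.4 CPM in RED; log2 0.73, SE 0.13). Cdkn1a, the arrest gene p21, ran from 1.36 to 26.4 CPM in CTL and from 4.68 to 87.7 CPM in RED (log2 2.84, SE 1.10, adjusted p = 0.11). Of 25 oxidative stress and glutathione genes 4 rose (16%; Hmox1, Akr1b8, Akr1b10 and Cbr3) and Gclm fell (fold 1.36; not called with library totals or without any 1 of CTL 1, 2, 4 or 5 or of RED 3, 4 or 5), while Nqo1 did not pass (adjusted p = 0.7). Of 23 genes of the unfolded protein and integrated stress responses only Nupr1 rose (4.35%; log2 2.44, SE 0.44). Interferon-stimulated genes gave 4 rises of 25 (16%): Ifit2, Oas2, Mx1 and Cxcl10. This count was 2 without RED 4, 1 with limma-voom and 0 in experiment 2 alone. The call of Mx1 was lost in each experiment alone. The p53 count was 3 without RED 4 and 1 in experiment 2 alone. For the oxidative stress and glutathione list the higher count was 0 in experiment 2 alone.

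Several inflammatory mediators rose from near 0 CPM, and 6 early response genes rose. Of 21 tested chemokines and cytokines 12 rose (57.1%, against 11.7% of all genes) and none fell (median log2 2.99). The higher count was 7 with limma-voom, 8 in experiment 1 alone and 5 in experiment 2 alone. Ccl3, a macrophage chemokine, was at 0.047, 0.046, 0, 0.103 and 0.054 CPM in CTL and at 1.35, 0.537, 1.38, 4.95 and 22.1 CPM in RED (log2 6.40, SE 1.14, adjusted p = 0.0069). Tnf was at 0.054 to 0.258 CPM in CTL and at 1.05, 0.279, 2.46, 4.57 and 28.4 CPM in RED (adjusted p = 0.0088, lost in each experiment alone and with limma-voom). RED 5 was highest and RED 2 lowest for Ccl3, Tnf, Ccl2, Cxcl2, Il1a and Il1b, the same extremes as for the Kupffer sum. Of 20 immediate early genes, which respond quickly to many stimuli, tissue digestion included, 6 rose (30%, against 11.7% of all genes). This count was 3 with limma-voom and in experiment 1 alone and 2 in experiment 2 alone. It was 4 without any 1 of CTL 3, 4 or 5 or without RED 4. The largest rises were those of Klf4 and Klf2, factors abundant in endothelium (log2 4.16 and 3.75), followed by Ier3 (3.08) and Klf6 (2.2). Fosb rose less in fold (87.9 ± 20.5 to 217 ± 89.7 CPM, SD, n = 5). The call of Ier3 was lost in each experiment alone, with limma-voom, and without any 1 of CTL 1, 3, 4 or 5 or of RED 4 or 5. Fos did not pass (log2 0.20, SE 0.21, adjusted p = 0.58). Among YAP and TGF-beta targets 10 of 23 rose (43.5%, against 11.7% of all genes). Examples were the matricellular factor Ctgf, now Ccn2 (log2 5.03, SE 0.86), and Tgfb1 (1.75 ± 0.92 to 13.9 ± 8.72 CPM, SD, n = 5).

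Genes of fetal liver and liver tumours rose without the classic fetal marker. Of 21 tested 14 rose (66.7%, against 11.7% of all genes), with a median log2 of 2.69. The count was 8 or 9 without any 1 of CTL 1, RED 4 or RED 5. But Afp, alpha-fetoprotein, was at 4.04 ± 0.70 CPM in CTL and 4.12 ± 0.89 CPM in RED (SD, n = 5, log2 0.03, SE 0.22, edgeR adjusted p = 0.94). Sox4 (chr13:28948919-28953713), a transcription factor of progenitor and tumour cells, was at 0.665, 0.85, 0.409, 0.362 and 0.544 CPM in CTL and at 7.15, 7.88, 10.2, 8.21 and 15.1 CPM in RED (fold 17, log2 4.09, SE 0.33, adjusted p = 0.0034). The tetraspanin Cd63 was at 0.546, 0.735, 0.375, 1.14 and 1.42 CPM in CTL and at 10.8, 12.9, 18.5, 14.5 and 35.5 CPM in RED (log2 4.42, SE 0.47). Vim, Anxa2, Lgals3, Tmsb10 and Scd2 also rose, and all 5 of them were highest in RED 5 and lowest in RED 2, like the Kupffer and matrix sums.

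Some rises were of similar size in all 5 RED samples. Among the 512 genes higher beyond 2-fold with at least 5 CPM in RED, the ratio of the highest to the lowest RED sample had a median of 7.17. The 12 genes with the smallest ratio, chosen after the values were seen, were Spc25, Rab27a, Tcaf1, Gria3, Lpl, Pygb, Sox4, Sirpa, Pak1, Adamts5, B4galt6 and Enc1. Tcaf1, a partner of TRP channels, was at 2.21, 2.41, 2.25, 2.12 and 2.31 CPM in CTL and at 7.05, 6.77, 6.57, 7.28 and 9.76 CPM in RED (fold 3.29, SE of log2 0.17, adjusted p = 0.0038). Adamts5, a matrix-cleaving protease, was at 0.522, 0.299, 1.13, 0.362 and 0.354 CPM in CTL and at 8.03, 9.82, 7.60, 5.47 and 12.6 CPM in RED (fold 16.7, adjusted p = 0.0034). Pygb, the brain form of glycogen phosphorylase, rose from 3.50 ± 1.70 to 18.6 ± 5.68 CPM (SD, n = 5; edgeR adjusted p = 0.0067) while the liver form Pygl fell. Spc25, a kinetochore protein, was at 1.33 to 3.07 CPM in CTL and at 6.75, 5.03, 6.24, 5.51 and 5.74 CPM in RED, with RED 1 the highest. Sirpa, the receptor for the CD47 signal, and the vesicle regulator Rab27a rose 5.82-fold and 3.42-fold. All 12 were called with library totals, and Gria3, Sirpa, B4galt6 and Enc1 were not called in experiment 2 alone.

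**Figure D5:**
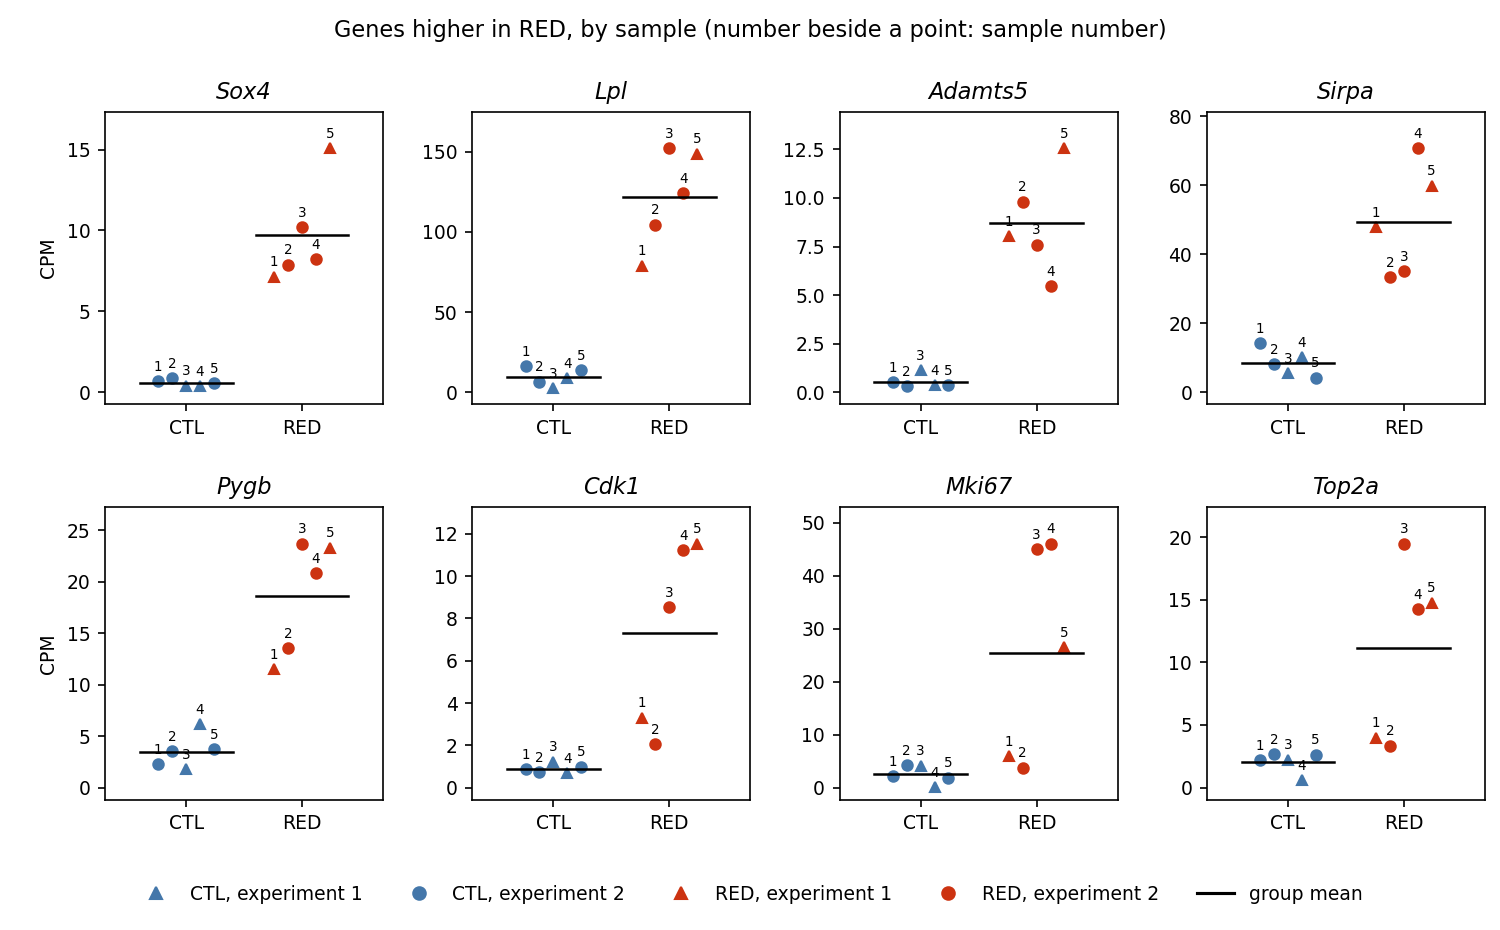
CPM of 8 genes higher in RED in each sample (numbers beside points are sample numbers; triangles, experiment 1; circles, experiment 2; line, group mean of 5). Sox4, Lpl, Adamts5, Sirpa and Pygb are raised in all 5 RED samples, and Cdk1, Mki67 and Top2a mainly in RED 3, 4 and 5.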

How the data were processed

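RNA-seq libraries were quantified with kallisto 0.43.1 against GRCm38, per the submitters' processing notes, and the deposited tables hold the authors' estimated counts per gene; the sources used here do not give the annotation release. Of the values, 25.6% were not whole (tolerance 0.01), and all were rounded. One library per sample was used. CTL 5, RED 2, RED 3 and RED 4 have libraries in both experiments, and those of experiment 2 were taken. The fits of each experiment alone took all its RED and CTL libraries, so these samples enter both. Of 35274 genes, 14793 passed edgeR's filterByExpr. The quasi-likelihood F test (edgeR 4.0.16, R 4.3.3) had terms for experiment and group, with TMM scaling and Benjamini-Hochberg adjustment over all 14793 genes; the 2-fold test was glmTreat. The script was tested on simulated data. Groups not overlapping means that every RED sample lay on 1 side of every CTL sample of the same experiment.

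Genes were named by rule: the 12 largest falls and 12 largest rises among called, non-overlapping genes with a CTL mean of at least 5 CPM, the 8 largest rises below that with a RED mean of at least 5 CPM, and leading members of 51 gene lists. Of 896 list symbols 893 were matched. The members and lists were chosen with earlier results of these data known. Other genes named, such as further list members and per-sample examples, were chosen after their values were seen. Alternatives used other scalings, filters and tests (DESeq2 1.42.0, limma 3.58.1), other libraries, a Y-linked covariate, a replicate block, and each sample left out. The p-values measure the spread between the samples, which the labels call biological replicates. Same-numbered CTL and RED samples correlated by -0.141 to 0.538, so the numbers were not taken as pairs. Some items withheld for evaluation are not reported here.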

Additional observations from a re-analysis of the deposited data

Results flagged for a closer look

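Of 96 groups of 5 samples that were checked for a sample far from the others, 2 had one, and chance gives about 1 in 20 groups. For Nxpe2 the highest RED sample, RED 5 at 3.71 CPM, stood apart from the other 4 RED samples at 1.52 to 1.79 CPM, and it was below every CTL sample. For the summed neutrophil markers RED 5 stood at 28.1 CPM, against 6.07 to 8.09 CPM in the other 4 RED samples and 0.408 to 3.05 CPM in CTL.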

How the results depend on the processing

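No named gene past the threshold changed sign under the alternatives run. With library totals 74 of all called genes did, genes of 20 to 100 CPM went from 108 higher and 442 lower to 487 and 32, and those of at least 100 CPM from 9 and 176 to 35 and 17. The count of all called genes (2534) was 1684 in experiment 1 alone, 659 in experiment 2 alone and 380 with the replicate block, and 1559 (without RED 4) to 2792 (without RED 1) with 1 sample left out. The higher count (1727) was 2833 with library totals, 591 in experiment 2 alone, 265 with the replicate block, and 1158 to 1918 with 1 sample left out. The lower count (807) was 95 with library totals, 1221 with DESeq2, 326 with GREEN in the model, 415 with the experiment 1 libraries of the 4 samples that have both, 303 and 68 in experiments 1 and 2 alone, 394 without an experiment term, 115 with the replicate block, 1259 with the Y-linked covariate, and 362 to 894 with 1 sample left out. Of 252 called list members, 91 passed in experiment 2 alone and 51 with the replicate block, and of the 32 genes named by size 20 and 19. Without a test against 2-fold, 1764 genes had a fitted fold over 2, against 1017. Same-numbered samples share only a number, and 2 of 5 RED samples correlated best with their own number. Low counts limit the T cell, B cell and duct lists, many of whose members were too low to test.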

Other observations

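A test of whether the RED and CTL difference varied with the Y-linked level was added after the values had been seen. Of 14793 genes 1 passed in edgeR, Chrm3, a muscarinic acetylcholine receptor, with an interaction of -6.11 on the log2 scale (adjusted p = 0.016), and 2157 had an unadjusted p under 0.05. Its fitted log2 fold change of RED over CTL was -0.89 at a high and 5.21 at a low Y-linked level. No other gene passed, those on the sex-biased lists included.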
